A study of Rattus norvegicus with 16 samples.

Results

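The respiratory chain of mitochondria and the ATP synthase that it powers were followed through the nuclear genes of their subunits in the diencephalon of rats that were short of zinc or had been given zinc back. Members were chosen by name: probe sets with a single gene symbol that began with Nduf, Uqcr, Atp5 or Cox4 to Cox8, or was Sdha, Sdhb, Sdhc or Sdhd, with 1 probe set per gene, the one of highest mean log2 signal over all arrays. The rule found 86 genes among the 14217 genes that had a probe set of 1 symbol. Of these, 78 reached the signal needed for testing (a mean log2 signal of 7.35, a signal of 163, the median of all probe sets) and 8 did not. The tested genes were 6 core subunits, 28 accessory subunits and 5 assembly factors of complex I, 4 subunits of complex II, 7 of complex III, 12 of complex IV and 16 of the ATP synthase (complex V). Another 7 probe sets whose symbols listed a second, closely related gene were left out by the rule.

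Each of 16 expression arrays held RNA from the diencephalon, the brain region of the thalamus and hypothalamus, of 1 male Sprague-Dawley rat, with 4 rats in each of 4 groups. In the deficient group (ZD) the diet held only 0.6 mg zinc per kg and was fed for 10 days to rats that were 5 weeks old at the start. Their pair-fed controls (PF) got just as much food as they ate, with 30 mg zinc per kg in it. In a separate experiment, recovered rats (ZR) and controls pair-fed to them (ZRPF) went through the same 10 days, after which both were fed 13 g daily of the diet with 30 mg zinc per kg for 6 days. All rats were offered 300 mM NaCl in a choice test. Each experiment started with 9 rats on the deficient diet and 6 pair-fed rats, and 1 ZRPF rat and 3 ZR rats were dropped for their salt preference. The submitters chose the 4 rats per group for being typical in body weight, salt intake preference and zinc in plasma, so the spread between arrays is that of selected animals.

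Some values of the whole series touch the results. The arrays of the 10-day and 16-day experiments did not overlap in the log2 ratio of the 3' to the 5' probe set of beta-actin, a measure of RNA or labelling quality (1.37 to 1.73 in PF and ZD, 2.05 to 2.48 in ZRPF and ZR). Of the thalamus markers with a probe set, 17 of 18 were bright enough for testing, as were 13 of 17 hypothalamus markers. Summed signals were taken over all markers of a list with a probe set, tested or not. That of 13 choroid plexus markers ran from 8866 to 10415 in PF, 9847 to 21929 in ZD, 8538 to 36494 in ZRPF and 8120 to 34529 in ZR. For 15 neuron markers it ran from 88666 to 98943, 88696 to 93396, 94845 to 108126 and 93378 to 103841. Hypothalamus markers were higher in the 16-day rats, with a summed signal of 32843 to 38488 in PF and 30265 to 40233 in ZD against 45477 to 50227 in ZRPF and 42395 to 48281 in ZR. In whole tissue, fewer cells of a type and less RNA per cell cannot be told apart.

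As background, complex I (NADH dehydrogenase) and complex II (succinate dehydrogenase) pass electrons to ubiquinone, complex III passes them on to cytochrome c, and complex IV (cytochrome c oxidase) hands them to oxygen. Complexes I, III and IV pump protons across the inner membrane, and complex V lets them flow back to make ATP. Neurons depend on this process for most of their ATP, and some subunits, among them those of *Cox5b* and *Ndufs6*, bind zinc.

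Promoter windows from RefSeq (assembly GRCr8, 250 bases before to 50 after the start of the gene) were matched by gene identifier and symbol for 78 of the 86 members. Windows are shown for *Ndufb5* and *Sdhd*, which were lower in both 16-day groups than in the 10-day groups, for *Cox4i1*, which was higher in 1 of these comparisons, and for the zinc-binding *Ndufs6* and *Cox5b*. Each reads 5' to 3' on the strand of the gene, and capitals mark letters matching 1 of 4 motifs searched on both strands: those of NRF1 (the first capitals of the *Ndufs6* window), of ETS factors such as GABP (CCGGAAG), of YY1 (the second capitals of the *Ndufs6* window) and of ERR (AAGGTCA).
Ndufb5 (chr2:117447355-117447654, plus strand): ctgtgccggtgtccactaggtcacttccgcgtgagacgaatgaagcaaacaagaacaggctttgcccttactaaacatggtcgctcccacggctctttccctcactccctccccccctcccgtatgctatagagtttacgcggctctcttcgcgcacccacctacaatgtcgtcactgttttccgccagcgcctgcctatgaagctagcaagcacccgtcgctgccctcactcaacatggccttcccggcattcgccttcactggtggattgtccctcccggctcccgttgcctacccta
Sdhd (chr8:59850592-59850891, minus strand): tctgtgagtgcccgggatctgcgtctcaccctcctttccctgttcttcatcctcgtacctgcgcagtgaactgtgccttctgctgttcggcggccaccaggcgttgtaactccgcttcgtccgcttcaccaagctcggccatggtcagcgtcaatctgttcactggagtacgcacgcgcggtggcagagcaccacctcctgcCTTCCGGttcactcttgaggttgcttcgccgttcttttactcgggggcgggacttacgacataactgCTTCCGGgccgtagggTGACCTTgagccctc
Cox4i1 (chr19:65630133-65630432, plus strand): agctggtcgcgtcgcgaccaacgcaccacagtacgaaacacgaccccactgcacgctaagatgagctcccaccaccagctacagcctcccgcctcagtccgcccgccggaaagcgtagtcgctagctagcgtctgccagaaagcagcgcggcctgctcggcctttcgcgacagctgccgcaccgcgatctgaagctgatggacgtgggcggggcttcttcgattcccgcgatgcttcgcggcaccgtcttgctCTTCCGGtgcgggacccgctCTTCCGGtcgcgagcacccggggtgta
Ndufs6 (chr1:31797150-31797449, plus strand): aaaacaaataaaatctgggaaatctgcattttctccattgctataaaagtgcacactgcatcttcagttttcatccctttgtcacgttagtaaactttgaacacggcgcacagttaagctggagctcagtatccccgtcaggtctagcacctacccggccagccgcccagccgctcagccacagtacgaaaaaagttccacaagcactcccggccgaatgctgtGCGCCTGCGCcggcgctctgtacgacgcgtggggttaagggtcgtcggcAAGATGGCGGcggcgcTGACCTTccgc
Cox5b (chr9:46417587-46417886, plus strand): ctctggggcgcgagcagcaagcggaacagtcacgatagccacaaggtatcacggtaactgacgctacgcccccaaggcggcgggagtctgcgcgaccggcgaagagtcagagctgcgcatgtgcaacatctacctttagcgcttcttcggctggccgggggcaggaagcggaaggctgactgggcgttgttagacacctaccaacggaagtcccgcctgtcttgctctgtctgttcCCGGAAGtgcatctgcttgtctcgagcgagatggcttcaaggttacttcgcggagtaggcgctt

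Over the matched members, 15 windows (19.2%) held the NRF1 letters, 22 (28.2%) the ETS letters, 10 (12.8%) the YY1 letters and 11 (14.1%) the ERR letters. Among all 33469 windows of that length in the table the shares were 4.25%, 8.75%, 0.98% and 4.61%, and any of the motifs was found in 53.8% of member windows and 17.1% of all. The median GC content of the windows was 56.0% for members and 51.7% for all. A match is a description of letters, and different motifs may overlap. The *Ndufs6* window held 3 of the motifs, while that of *Ndufb5* held none.

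Zinc deficiency against pair-feeding asked what the lack of zinc did beyond the smaller food intake. No member passed the threshold (an adjusted p of 0.05 in limma, corrected over all 15521 probe sets tested), where 0.0% of all probe sets did. Of the 78 members 59 had a log2 fold change above 0 and 19 below, with a median of 0.021, and 52.5% of all probe sets lay above 0 with a median of 0.0083. The 95% interval of every member lay within a log2 change of 0.5 in either direction, and standard errors ran from 0.052 to 0.14.

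The member of smallest p was *Cox7a2l*, whose product helps complexes III and IV join into supercomplexes. Its log2 signals were 12.25, 12.20, 12.18 and 12.32 in PF and 12.38, 12.29, 12.31 and 12.51 in ZD, with the highest PF rat above the lowest ZD rats. At 0.14 ± 0.06 (log2 fold change ± SE, adjusted p = 0.591 in limma) it was the 1 member (1.28%) with an unadjusted p under 0.05, against 7.86% of all probe sets. *Ndufa11*, an accessory subunit of the membrane arm of complex I, stood at 0.17 ± 0.08, with 11.55, 11.55, 11.57 and 11.52 in PF and 11.68, 11.65, 11.52 and 12.00 in ZD. The core subunit *Ndufs8*, which carries iron-sulfur clusters, stood at 0.14 ± 0.08 and *Cox7b*, a small subunit of complex IV, at 0.09 ± 0.07. None of the 78 tested members had ZD and PF rats without overlap, whereas 4.19% of all probe sets did. Among the members under the filter, *Ndufa4l2* had its ZD rats (6.76 to 7.17) just above its PF rats (5.92 to 6.75), at a signal too low for testing.

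By complex, all 12 tested members of complex IV lay above 0 (0.003 to 0.14, median 0.033), as did 23 of 28 accessory subunits of complex I and the 4 subunits of complex II (0.003 to 0.058). Members of the ATP synthase were split, with 8 above and 8 below 0, and the assembly factors of complex I ran from -0.09 to 0.10.

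These small positive values leaned on 1 rat. In array ZD 9 the members lay on average 0.22 above their own means over the 16 arrays, and 76 of 78 were above, while the other ZD arrays had means of 0.053, 0.016 and -0.036 and the PF arrays 0.054, 0.044, -0.036 and 0.10. Without ZD 9, 62 of 78 members lay below 0 and the median was -0.030, without PF 4 44 lay below with a median of -0.0044, and without ZD 8 12 lay below with a median of 0.062. With each array centred on its median log2 signal 57 members lay below 0 (median -0.022), as did 61.6% of all probe sets (median -0.035). The member median thus lay above that of all probe sets with this centring, as it did without it. With array weights 31 members lay below 0, against 47.7% of all probe sets. The direction of the members under zinc deficiency was thus not the same across rats or scalings, and none was called under any of the settings run.

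**Figure D1:**
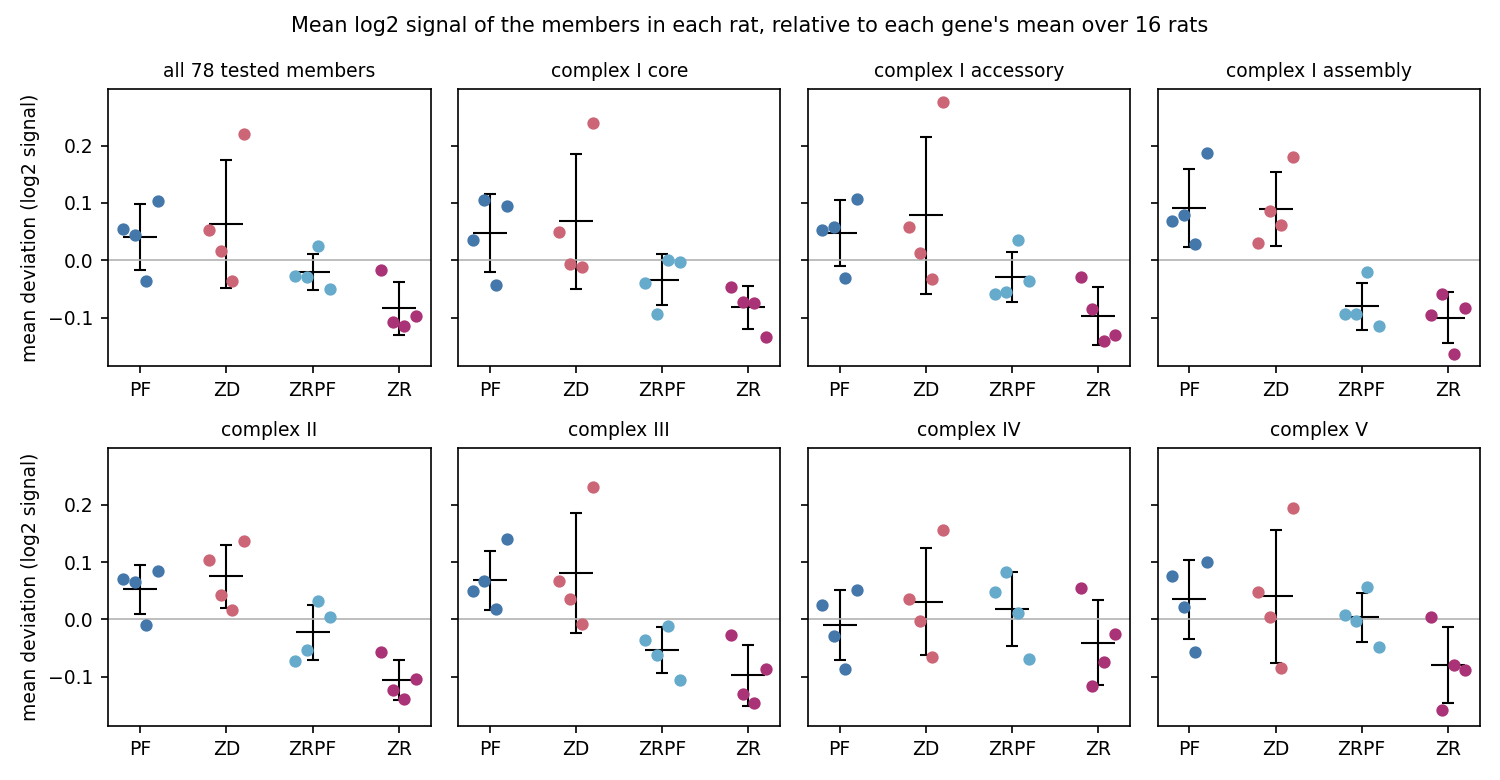
Mean deviation of the members from each gene's own mean over 16 rats (log2 signal, vertical axis) in each rat of PF, ZD, ZRPF and ZR, for all 78 tested members and by complex; points are rats, the wide tick is the group mean and the bar the SD (n = 4). Array ZD 9 lies highest over all members, at 0.22, and the ZR rats lie between -0.11 and -0.016.

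Recovered rats against their pair-fed controls asked what was left of the earlier deficiency after 6 days of zinc. Again no member passed the threshold in limma, where 0.00644% of all probe sets did (1 of 15521). The signs were nearly uniform, with 74 of 78 members lower in ZR, a median of -0.062 and changes from -0.27 to 0.20, while 51.7% of all probe sets lay below 0 with a median of -0.005. All 12 members of complex IV, all 16 of the ATP synthase, all 7 of complex III and all 4 of complex II lay below 0, with medians of -0.056, -0.086, -0.056 and -0.061. Averaged over the members, the ZRPF arrays lay at -0.021 ± 0.032 (SD, n = 4) from the mean of all arrays and the ZR arrays at -0.084 ± 0.046, and the groups overlapped.

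The shift was small and was not confined to these genes. Among the 543 other probe sets with a mean log2 signal at or above the member median of 12.39, a comparison set up after the values were seen, 72.56% lay below 0 in ZR against ZRPF with a median of -0.045. In ZRPF against PF and ZR against ZD the same probe sets did not lean lower, with 43.65% and 47.33% below 0 and medians of 0.030 and 0.010. Each setting run kept most members below 0, with 66 to 72 of 78 when 1 array was left out and 63 (quantile normalization) to 77 (no filter, 86 members) otherwise.

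*Sdhc*, which anchors complex II in the membrane and holds its heme, had the smallest p. Its log2 signals were 12.48, 12.41, 12.44 and 12.44 in ZRPF and 12.22, 12.34, 12.11 and 12.32 in ZR, and all ZR rats lay below all ZRPF rats. The change was -0.19 ± 0.07 on the log2 scale (adjusted p = 0.927). *Ndufb4*, an accessory subunit of complex I, was the other member without overlap, with 13.38, 13.70, 13.50 and 13.40 in ZRPF against 13.35, 13.37, 13.29 and 13.28 in ZR, and stood at -0.17 ± 0.07. These 2 of 78 members (2.56%) compare with 1.58% of all probe sets that lay lower without overlap.

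*Ndufb8*, another accessory subunit of complex I, had 9.34, 9.72, 9.84 and 9.66 in ZRPF and 9.17, 9.34, 9.52 and 9.45 in ZR, so ZRPF 2 lay among the ZR rats, and its log2 fold change was -0.27 ± 0.12. *Atp5po*, the subunit that ties the head of the ATP synthase to its stator, stood at -0.14 ± 0.07, but at 0.034 when all its probe sets were averaged. With *Sdhc* and *Ndufb4* these made 4 members (5.13%) with an unadjusted p under 0.05, against 5.21% of all probe sets. The 4 members above 0 were *Ndufaf4* (0.20 ± 0.10) and *Ndufaf7* (0.005 ± 0.088), assembly factors of complex I, the accessory subunit *Ndufb6* (0.11 ± 0.10) and the core subunit *Ndufs1* (0.032 ± 0.058). The 95% intervals of 77 of 78 members lay within a log2 change of 0.5 and that of *Ndufb8* reached -0.52.

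**Figure D2:**
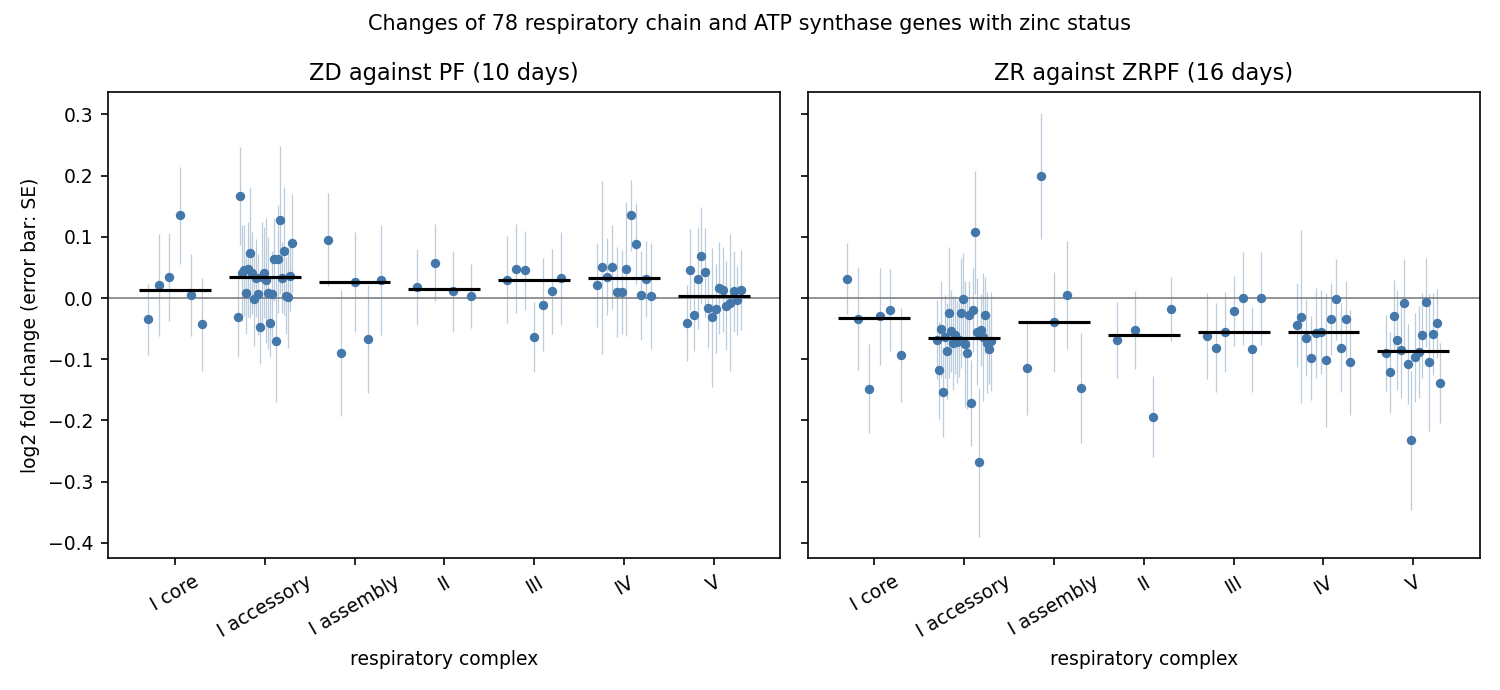
Log2 fold change of each of 78 members (points, error bars are SE) in ZD against PF and in ZR against ZRPF, by complex, with the median of each complex as a black line. Values in ZD against PF scatter about 0 with a median of 0.021, and those in ZR against ZRPF lie mostly below 0 with a median of -0.062.

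The difference between these changes was tested as an interaction (the change in ZR against ZRPF minus that in ZD against PF). No member passed (0.0% of all probe sets did), 70 of 78 lay below 0 and the median was -0.089, against 53.1% and -0.013 over all probe sets and 64.64% and -0.039 over the 543 other bright probe sets. Smallest in p were *Ndufa11* (-0.28 ± 0.11), *Ndufb8* (-0.40 ± 0.17) and *Sdhc* (-0.20 ± 0.09), each with an adjusted p of 0.747 in limma. These were the 3 members (3.85%) with an unadjusted p under 0.05, against 6.6% of all probe sets. Without array ZD 9, 56 members lay below 0 and the median was -0.028.

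Larger differences separated the experiments. Between pair-fed rats, ZRPF against PF, 9 of 78 members (11.5%) were called in limma, against 15.7% of all probe sets, with 7 lower (8.97%, against 6.15%) and 2 higher (2.56%, against 9.5%). Between rats that had eaten the deficient diet, ZR against ZD, 18 members (23.1%) were called against 17.3% of all probe sets, and all 18 were lower, where 8.18% of all probe sets were called lower and 9.16% higher. The first share lies under the background and the second somewhat over it. In ZRPF against PF 57 members lay below 0 (median -0.064, with 51.0% of all probe sets below 0), and in ZR against ZD 68 did (median -0.15, with 51.1%). Groups did not overlap for 16 members (20.5%) in ZRPF against PF, where 21.4% of all probe sets did not, and for 16 members in ZR against ZD, all lower, where 9.94% of all probe sets were lower without overlap. Age, the 6 days on a fixed ration, the experiment and the actin ratio all differ between the 16-day and 10-day rats and cannot be told apart, and in ZR against ZD the return of zinc is added to them. Of 13 hypothalamus markers 4 were called higher in each comparison (median 0.30 in both). Of 17 thalamus markers 2 were called lower in ZRPF against PF and 1 in ZR against ZD, and of 11 meningeal and mural markers none and 6 were called lower (medians -0.031 and -0.60). The part of these cell types in the members' differences was not tested beyond the choroid plexus and thalamus covariates.

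*Ndufb5*, an accessory subunit in the membrane arm of complex I, was the member with the smallest p in both comparisons. Its log2 signals were 12.78, 12.82, 12.74 and 12.89 in PF, 12.81, 12.83, 12.78 and 13.06 in ZD, 12.38, 12.52, 12.51 and 12.32 in ZRPF, and 12.44, 12.50, 12.40 and 12.31 in ZR. Every 16-day rat lay below every 10-day rat, and within each experiment the groups overlapped. It fell by 0.38 on the log2 scale in ZRPF against PF (SE 0.07, adjusted p = 0.00107 in limma) and by 0.46 in ZR against ZD (SE 0.07, adjusted p = 0.00022), lower in 4 of 4 rats each time. It was also the 1 member called in ZRPF against PF under every setting, with adjusted p up to 0.029.

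*Sdhd*, the other membrane anchor of complex II, had 11.96, 11.99, 11.97 and 12.04 in PF, 11.97, 12.00, 12.03 and 11.99 in ZD, 11.75, 11.73, 11.92 and 11.85 in ZRPF, and 11.77, 11.76, 11.85 and 11.79 in ZR. The 8 rats of the 10-day experiment lay above the 8 of the 16-day experiment, and the log2 fold changes were -0.18 ± 0.05 (adjusted p = 0.0241) and -0.20 ± 0.05 (adjusted p = 0.0119). The iron-sulfur subunit *Sdhb* and *Sdhc* fell in ZR against ZD (-0.21 ± 0.06 and -0.23 ± 0.07) and stood at -0.10 ± 0.06 and -0.03 ± 0.07 in ZRPF against PF. For *Sdhb* the signals were 12.29, 12.28, 12.13 and 12.30 in PF, 12.30, 12.30, 12.17 and 12.46 in ZD, 12.11, 12.14, 12.18 and 12.19 in ZRPF, and 12.06, 12.21, 12.08 and 12.05 in ZR. *Sdha*, the catalytic flavoprotein, was not called, at 0.01 ± 0.06 in ZRPF against PF and -0.08 ± 0.06 in ZR against ZD. Its signals of 12.33, 12.37, 12.24 and 12.24 in PF, 12.35, 12.26, 12.33 and 12.31 in ZD, 12.17, 12.31, 12.39 and 12.34 in ZRPF, and 12.33, 12.26, 12.26 and 12.09 in ZR overlapped between all groups. So 3 of the 4 subunits of complex II were called in ZR against ZD, where 8.18% of all probe sets were called lower, and without array ZD 9 only *Sdhd* was.

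In complex III, *Uqcr10*, a small subunit next to cytochrome c1, had 13.18, 13.10, 13.12 and 13.34 in PF, 13.12, 13.22, 13.13 and 13.39 in ZD, 12.96, 12.93, 13.02 and 12.96 in ZRPF, and 12.90, 13.05, 12.87 and 12.79 in ZR. It fell by 0.22 in ZRPF against PF (SE 0.07, adjusted p = 0.0414) and by 0.31 in ZR against ZD (SE 0.07, adjusted p = 0.0054), with no overlap in either. *Uqcrq*, the ubiquinone-binding small subunit, fell in ZR against ZD (-0.25 ± 0.08) and stood at -0.21 ± 0.08 in ZRPF against PF. The Rieske iron-sulfur protein *Uqcrfs1* was not called, at -0.17 ± 0.08 and -0.16 ± 0.08.

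The assembly factor *Ndufaf5* was the fourth member called in both comparisons, with 9.83, 9.78, 9.74 and 9.95 in PF, 9.85, 9.77, 9.81 and 9.97 in ZD, 9.46, 9.52, 9.57 and 9.71 in ZRPF, and 9.44, 9.40, 9.63 and 9.64 in ZR. The log2 fold changes were -0.25 ± 0.08 (adjusted p = 0.0412) and -0.32 ± 0.08 (adjusted p = 0.0114), again without overlap. *Ndufaf7*, a methyltransferase needed for complex I assembly, had 9.29, 9.30, 9.33 and 9.37 in PF and 8.84, 9.09, 9.26 and 8.94 in ZRPF, without overlap. It fell in ZRPF against PF (-0.29 ± 0.09) and stood at -0.22 ± 0.09 in ZR against ZD. *Ndufaf3*, another assembly factor, fell in ZR against ZD (-0.24 ± 0.08) and stood at -0.03 ± 0.08 in ZRPF against PF.

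Of the 6 core subunits of complex I, *Ndufs1*, which carries iron-sulfur clusters of the electron path, fell in ZRPF against PF (-0.20 ± 0.06), from 11.75, 11.81, 11.66 and 11.83 in PF to 11.50, 11.64, 11.58 and 11.53 in ZRPF, without overlap. *Ndufs3*, in the peripheral arm, fell in ZR against ZD (-0.27 ± 0.08). The accessory subunit *Ndufb3* fell in ZRPF against PF (-0.17 ± 0.06), from 12.93, 12.89, 12.80 and 12.92 in PF to 12.76, 12.75, 12.72 and 12.62 in ZRPF, all ZRPF rats being lower. Besides *Ndufb5* and *Ndufs6*, the accessory subunits *Ndufb8*, *Ndufb2*, *Ndufb7*, *Ndufa9*, *Ndufc2*, *Ndufa13* and *Ndufb9* fell in ZR against ZD, by 0.47, 0.33, 0.28, 0.23, 0.22, 0.22 and 0.21. *Ndufb8*, with 9.62, 9.70, 9.77 and 9.78 in PF and 9.78, 9.57, 9.84 and 10.19 in ZD, had every ZR rat below every ZD rat, and stood at -0.08 ± 0.12 in ZRPF against PF. *Ndufb2* had 12.49, 12.31, 12.64 and 12.66 in ZD and 12.25, 12.26, 12.27 and 11.99 in ZR, without overlap. For *Ndufc2* all ZR rats (12.57, 12.66, 12.53 and 12.56 in ZR) lay below the ZD rats (12.88, 12.70, 12.66 and 12.95 in ZD).

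**Figure D3:**
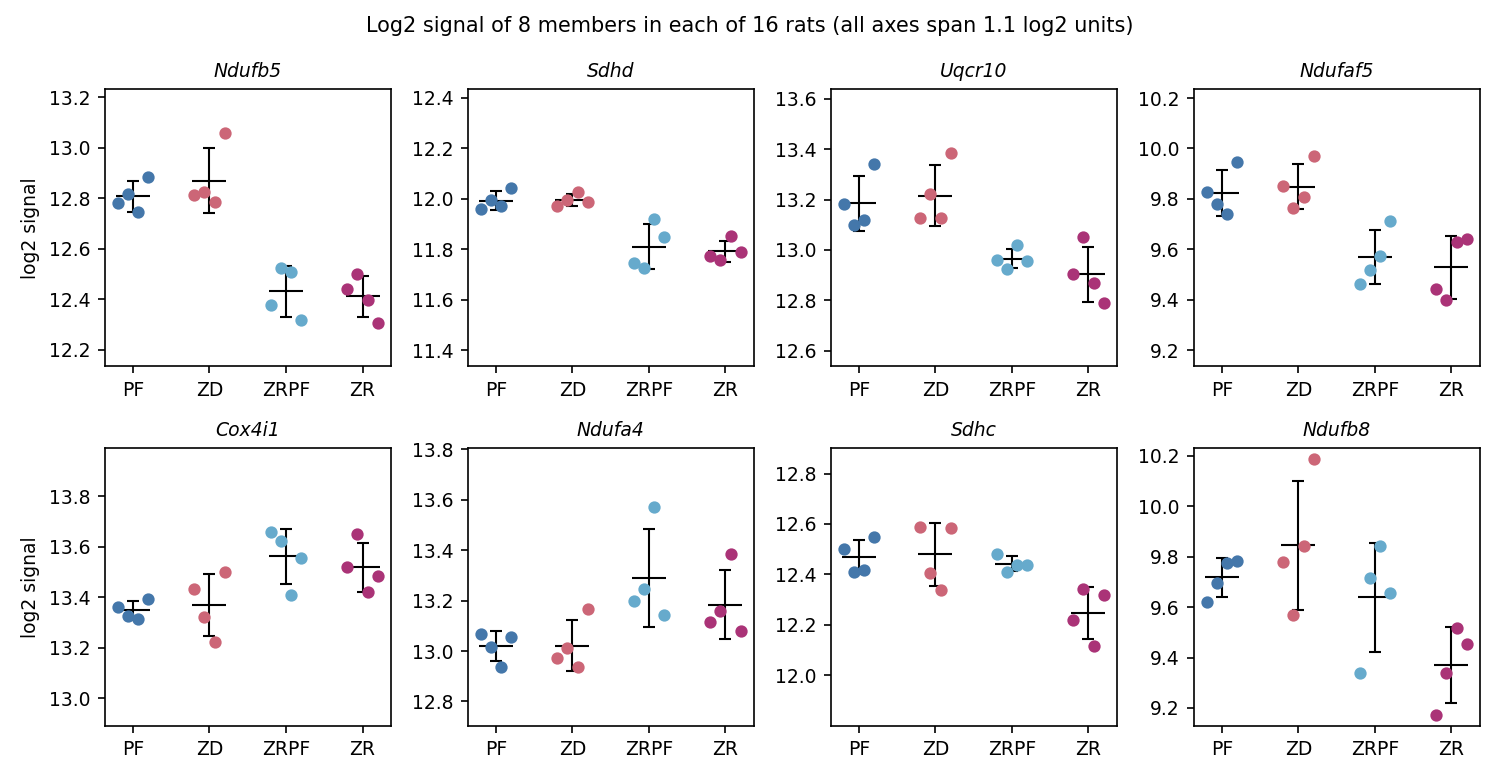
Log2 signal (vertical axes, each spanning 1.1 units) of 8 members in every rat of PF, ZD, ZRPF and ZR; points are rats, the wide tick is the group mean and the bar the SD (n = 4). *Ndufb5*, *Sdhd*, *Uqcr10* and *Ndufaf5* are lower in the 16-day rats, *Cox4i1* and *Ndufa4* are higher in ZRPF than in PF, and in *Sdhc* the ZR rats, from 12.11 to 12.34, lie below the ZRPF rats.

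Complex IV did not move as one. *Cox4i1*, the common form of the large regulatory subunit, had 13.36, 13.32, 13.31 and 13.39 in PF and 13.66, 13.62, 13.41 and 13.56 in ZRPF, without overlap, and rose by 0.21 ± 0.07 (SE, adjusted p = 0.0408). In ZD it had 13.43, 13.32, 13.22 and 13.50 and in ZR 13.52, 13.65, 13.42 and 13.48, which overlapped, and the change of 0.15 ± 0.07 was not called (adjusted p = 0.145). *Ndufa4*, once counted to complex I and now placed in complex IV, rose by 0.27 ± 0.09 in ZRPF against PF (13.07, 13.02, 12.94 and 13.05 against 13.20, 13.24, 13.57 and 13.14) and stood at 0.16 ± 0.09 in ZR against ZD. *Cox8a*, a small subunit, stood at 0.16 ± 0.06 and 0.09 ± 0.06 in the same comparisons.

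On the other side, *Cox7a2l* fell in ZR against ZD (-0.27 ± 0.06, adjusted p = 0.004) and stood at -0.10 ± 0.06 in ZRPF against PF. Its ZR signals of 12.12, 12.18, 12.00 and 12.10 all lay below the ZD rats. *Cox5a*, a subunit that faces the matrix, had the lowest fold changes of the complex, -0.32 ± 0.14 (adjusted p = 0.133) and -0.40 ± 0.14 (adjusted p = 0.058), and the largest standard error of all members. Its log2 signals were 8.52, 8.58, 8.47 and 8.73 in PF, 8.50, 8.52, 8.67 and 8.81 in ZD, 8.35, 8.62, 8.12 and 7.93 in ZRPF, and 8.37, 8.45, 7.93 and 8.15 in ZR, with the groups of the first comparison overlapping and those of the second apart. Of the 12 tested members of complex IV, 7 lay above 0 in ZRPF against PF and 4 in ZR against ZD. The rises were not stable to the scaling: median centring gave 0 members higher and 20 lower in ZRPF against PF, and quantile normalization 1 higher and 15 lower.

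No member of the ATP synthase was called in either comparison, at a smallest adjusted p of 0.0918 in ZRPF against PF and 0.063 in ZR against ZD. In these, 11 and 14 of the 16 members lay below 0, with medians of -0.041 and -0.13. *Atp5f1c*, the rotor subunit gamma, stood at -0.15 ± 0.06 in both and had groups without overlap in both. The inhibitor *Atp5if1*, which blocks the enzyme when the proton gradient fails, stood at -0.15 ± 0.07 and -0.20 ± 0.07, *Atp5me*, a small membrane subunit, at -0.11 ± 0.11 and -0.31 ± 0.11 (adjusted p = 0.0691), and the catalytic beta subunit *Atp5f1b* at 0.05 ± 0.07 and -0.12 ± 0.07. *Atp5mc3*, the 1 gene of the c ring with a probe set of its own, stood at 0.10 ± 0.07 and 0.01 ± 0.07.

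The comparisons ZRPF against PF and ZR against ZD share no rat. Of the 23 members called in either, 4 were called in both, all of them lower, which is 44.44% of the first list and 22.22% of the second. Over all probe sets those shares were 57.98% and 52.34%. Of the 78 members 55 lay below 0 in both and 8 above 0 in both, and across members the fold changes correlated at r = 0.74 (a description over 78 genes measured on the same arrays), the same as over all probe sets tested (0.74).

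**Figure D4:**
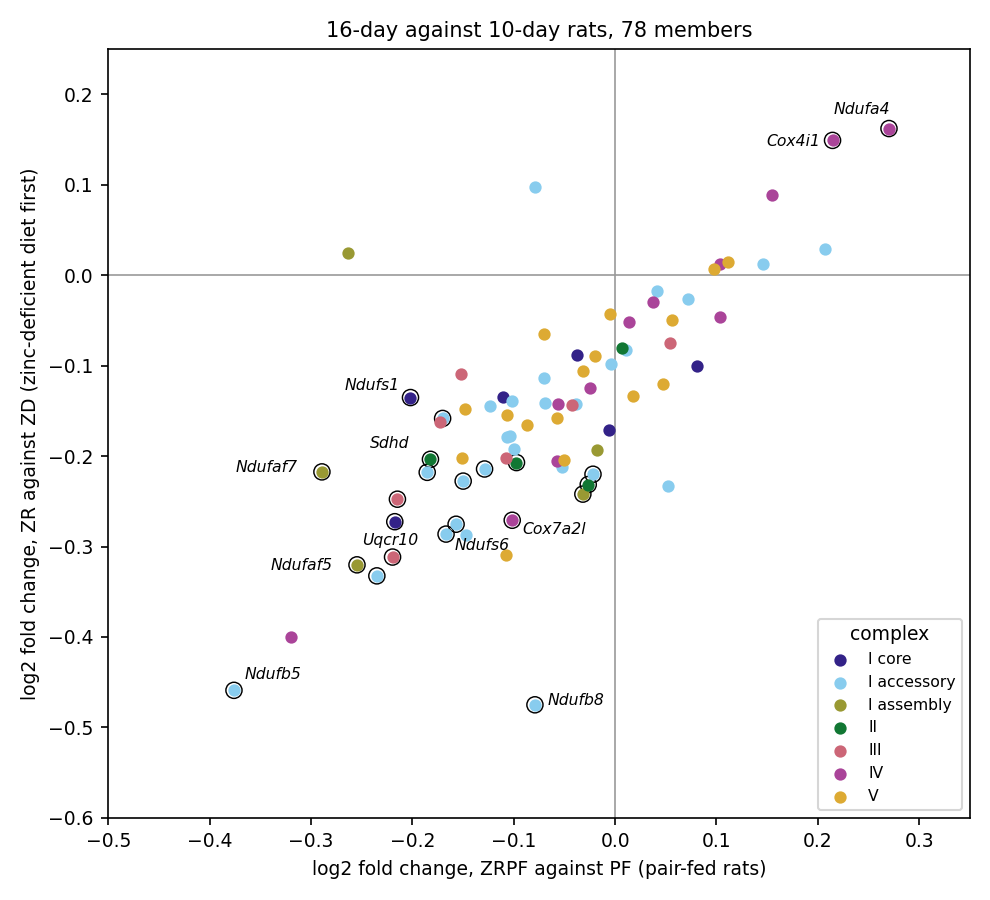
Log2 fold change of each member in ZRPF against PF (horizontal axis) and in ZR against ZD (vertical axis), coloured by complex, with a ring around members called in at least 1 of these. *Ndufb5* lies at the lower left (-0.38 and -0.46), *Ndufa4* and *Cox4i1* at the upper right, and 55 of 78 members lie below 0 on both axes.

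The number of these calls changed when single rats were left out. In ZRPF against PF the 9 calls became 2 without PF 1, PF 2 or PF 6, against 11.5%, 10.8% and 12.8% of all probe sets. They became 3 without ZRPF 2 (12.4% of all probe sets) and 5 without ZRPF 6 (12.2%). In ZR against ZD the 18 became 7 without ZD 9 (13.1% of all probe sets) and 9 without ZR 7 (13.3%). They became 10 without ZD 2 or ZR 15 (14.5% and 13.7%) and 29 without ZD 8 (16.7%). Leaving out 1 of the 8 arrays compared ended the ZRPF against PF call of *Cox4i1* and of *Ndufb3* for 7 of them. It ended those of *Ndufa4*, *Ndufaf5*, *Ndufaf7* and *Uqcr10* for 6, of *Ndufs1* for 5, of *Sdhd* for 4 and of *Ndufb5* for none. With all arrays *Cox4i1* and *Ndufb3* had adjusted p of 0.0408 and 0.0479 in limma, close to the threshold. Over these fits their log2 fold changes ran from 0.18 to 0.27 and from -0.20 to -0.14. In ZR against ZD, *Ndufb5*, *Ndufs6*, *Cox7a2l*, *Uqcr10*, *Ndufaf5*, *Ndufb8* and *Sdhd* kept their calls whichever array was left out, whereas that of *Ndufc2* ended for 5 arrays, of *Sdhc* for 4 (ZD 2, ZD 9, ZR 7 and ZR 13), of *Ndufb9* for 3, and of *Ndufa9* and *Ndufb2* for 2. The 7 members called without ZD 9 were those that kept their calls throughout, so *Sdhb*, *Uqcrq*, *Ndufs3*, *Ndufaf3*, *Ndufb7* and *Ndufa13* were not called without that array either. With the 3' to 5' ratio of Gapdh as a covariate 1 and 6 members were called, against 4.97% and 5.06% of all probe sets. Standard errors were larger in that fit, and in ZR against ZD *Uqcr10* stood at -0.32 ± 0.10, *Ndufs6* at -0.28 ± 0.08 and *Sdhd* at -0.18 ± 0.08, close to their values without the covariate. Other estimates moved either way. In ZR against ZD *Ndufa9* went from -0.23 to -0.14 ± 0.09 and *Ndufb9* from -0.21 to -0.28 ± 0.08. In ZRPF against PF *Ndufa4* went from 0.27 to 0.17 ± 0.11. With choroid plexus and thalamus markers as covariates 2 members were called in ZRPF against PF, against 8.99% of all probe sets. In ZR against ZD 19 members were called with these covariates, and the share over all probe sets is not given here. The ratio and the experiments cannot be told apart.

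Neither zinc-binding subunit was called under zinc deficiency. *Ndufs6*, a zinc-binding accessory subunit of complex I, had 12.65, 12.65, 12.50 and 12.69 in PF, 12.66, 12.63, 12.57 and 12.77 in ZD, 12.51, 12.45, 12.43 and 12.44 in ZRPF, and 12.31, 12.41, 12.44 and 12.33 in ZR. It stood at 0.04 ± 0.06 in ZD against PF and -0.08 ± 0.06 in ZR against ZRPF, and fell in ZR against ZD (-0.29 ± 0.06, adjusted p = 0.0024, lower in 4 of 4 rats). In ZRPF against PF, rats that had never been deficient, it stood at -0.17 ± 0.06 (adjusted p = 0.0557). *Cox5b*, the zinc-binding subunit of complex IV, had 13.07, 12.99, 12.88 and 12.96 in PF, 13.03, 13.02, 12.87 and 13.13 in ZD, 12.98, 12.98, 12.97 and 12.87 in ZRPF, and 12.83, 13.00, 12.82 and 12.89 in ZR. Its groups overlapped in all 4 comparisons and its log2 fold changes ran from -0.12 to 0.04.

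Several subunits of complex IV come in tissue forms. The forms common to most tissues, *Cox4i1*, *Cox6a1*, *Cox6b1* and *Cox8a*, were bright enough for testing, while *Cox4i2*, a form of lung and of low oxygen, the muscle forms *Cox6a2* and *Cox8b*, the testis forms *Cox6b2* and *Cox7b2* and the low-oxygen form *Ndufa4l2* were not. *Cox8b* and *Cox4i2* had signals of 2.2 to 103 and 4.01 to 83.3 over the 16 arrays. The muscle form *Cox7a1* passed the filter at a mean log2 signal of 7.99 and stood between -0.21 and 0.05 in the comparisons. Signals of different probe sets cannot be set against each other as amounts of RNA. The pseudogene *Cox6c-ps1* and the assembly factor *Ndufaf1* were also under the filter.

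Of the 9 genes with more than 1 probe set, *Uqcrc2*, *Sdhd*, *Ndufaf7* and *Ndufa7* had 2 that could be tested. For *Uqcrc2*, a core protein of complex III, they disagreed. The brighter had 12.97, 12.90, 12.88 and 12.96 in PF and 12.77, 12.91, 12.68 and 12.74 in ZRPF, and stood at -0.15 ± 0.06 (adjusted p = 0.0809) there and at -0.11 ± 0.06 in ZR against ZD. The dimmer had 10.56, 10.63, 10.74 and 10.40 in PF, 10.67, 10.48, 10.51 and 10.76 in ZD, 9.76, 9.70, 9.73 and 10.31 in ZRPF, and 9.83, 9.80, 9.33 and 9.65 in ZR. It fell by 0.71 ± 0.13 (adjusted p = 0.00115) and by 0.95 ± 0.13 (adjusted p = 9.69e-05), larger than the change of any member on its brightest probe set. For *Sdhd* the second probe set stood at -0.27 ± 0.11 in both comparisons, and for *Ndufaf7* at -0.24 ± 0.09 and -0.31 ± 0.09, the latter past the threshold (adjusted p = 0.0176). Which transcripts each *Uqcrc2* probe set detects was not analysed here.

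**Figure D5:**
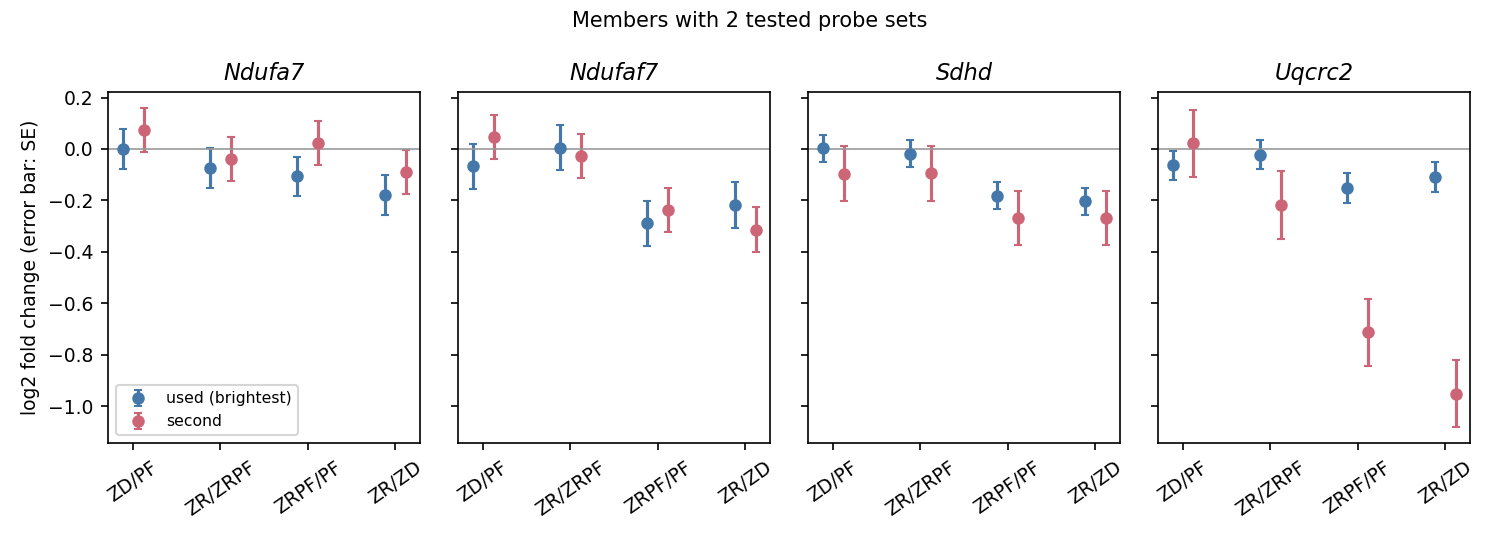
Log2 fold changes (points, error bars are SE) of the 4 members with 2 tested probe sets in ZD against PF, ZR against ZRPF, ZRPF against PF and ZR against ZD, for the brighter and the second probe set. For *Uqcrc2* the second probe set lies at -0.71 and -0.95 in the comparisons of 16-day with 10-day rats, far under the brighter one.

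Within groups many members followed the mean of all members, which includes each of them, from rat to rat. Array ZD 9 lay furthest from its group in that mean, at 0.16, and the members' correlations were not computed without it. After the group mean of each gene was taken off, the correlation of a member with the mean of all members over 16 arrays ran from 0.93 for *Ndufa6* down to -0.15 for *Ndufaf7*, and was low for *Ndufs1* (0.079), *Uqcrc2* (0.081), *Sdhd* (0.041) and *Sdha* (0.14). The genes outside the members whose deviations were most like the member mean were *Guk1*, guanylate kinase (r = 0.92), *Gpx4*, a glutathione peroxidase of lipids (0.91), *Eno1*, an enolase of glycolysis (0.91), *Kgd4*, a component of the 2-oxoglutarate dehydrogenase complex (0.90), and *Mif* (0.89). Without ZD 9 these were 0.87, 0.88, 0.84, 0.79 and 0.86. All these values come from the same 16 arrays and share what differs between them.

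Other mitochondrial genes were grouped by role. In ZD against PF and in ZR against ZRPF none of 95 tested genes of the citric acid cycle, pyruvate entry, electron carriers, complex assembly, inner and outer membrane channels, biogenesis regulators and antioxidants was called. The nearest was *Surf1*, an assembly factor of complex IV, at 10.73 ± 0.05 (SD, n = 4) in PF and 10.90 ± 0.09 in ZD, without overlap, which is 0.17 ± 0.06 higher (SE, adjusted p = 0.503). In the other experiment *Surf1* was at 10.65 ± 0.06 in ZRPF and 10.58 ± 0.05 in ZR (-0.062 ± 0.060, not called), and it was lower in ZR than in ZD by a log2 fold change of -0.31 (adjusted p = 0.0016).

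In the comparisons of 16-day with 10-day rats, assembly genes outside the members were called lower for 3 of 26 (ZRPF against PF) and 5 of 26 (ZR against ZD), and higher for none, where 6.15% and 8.18% of all probe sets were called lower. *Tmem126b*, which helps to build the membrane arm of complex I, fell in both, by 0.41 (adjusted p = 0.000794) and 0.37 (adjusted p = 0.00173). In the citric acid cycle 3 of 12 genes rose and 3 fell in ZRPF against PF, and 1 rose and 2 fell in ZR against ZD, where 15.7% and 17.3% of all probe sets were called in either direction. Subunits of 1 enzyme, the NAD-dependent isocitrate dehydrogenase, went opposite ways, with *Idh3a* higher by 0.47 ± 0.10 and 0.35 ± 0.10 while *Idh3b* fell, at -0.20 ± 0.06 and -0.26 ± 0.06. The outer membrane channels *Vdac1* and *Vdac2* fell in ZR against ZD (-0.31 ± 0.09 and -0.19 ± 0.06).

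Of 17 regulators of mitochondrial biogenesis, 2 were called higher in ZRPF against PF, where 9.5% of all probe sets were. These were *Gabpb1*, a partner of the ETS factor GABP (0.33 ± 0.11, groups overlapping), and *Polrmt*, the mitochondrial RNA polymerase (0.38 ± 0.12, without overlap). In ZR against ZD no regulator was called. The coactivator *Ppargc1a* was not called, at 9.82 ± 0.06 in PF, 9.71 ± 0.28 in ZD, 9.54 ± 0.05 in ZRPF and 9.74 ± 0.12 in ZR. Its ZR rats lay above all ZRPF rats, with a log2 fold change of 0.20 ± 0.10 (adjusted p = 0.927). Of 8 antioxidant and uncoupling genes *Txn2*, the mitochondrial thioredoxin, rose in ZRPF against PF (0.34 ± 0.11). The peroxiredoxins *Prdx5* and *Prdx3* fell in ZR against ZD (-0.29 ± 0.09 and -0.21 ± 0.07), where 8.18% of all probe sets were called lower.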

How the data were processed

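The authors deposited MAS5 signal intensities on a linear scale for each probe set, per the submitters' processing notes; the version of MAS5 is not given in the sources used here. Averaged without 2% of probe sets at either end, every array came to between 500.13 and 500.15. Signals were taken as log2 with no further normalization, and 15521 of 31042 non-control probe sets with a mean log2 signal at or above the median of 7.35 were tested. The 4 groups shared 1 limma model (limma 3.58.1, R 4.3.3, empirical Bayes with an intensity trend). Tests were two-sided, Benjamini-Hochberg adjustment ran over every probe set tested, and the threshold was 0.05. Precision is limited by the 4 rats per group.

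The members, the other gene lists and the tests were chosen with earlier results of these data known. The rule for members to describe took the 6 of smallest p in each comparison, the 2 brightest per complex, the zinc-binding subunits, complex II, the tissue forms and up to 12 called per comparison and direction; each rat's signal is printed for those on which results turn. For every other list the 2 genes of smallest p per comparison could be named, and *Ndufs3*, *Uqcrq* and further members are given by their fold change. The 5 genes most like the members were ranked by correlation of deviations from the group means. Rat numbers shared by PF and ZRPF (2, 4 and 6) gave correlations of deviations of 0.0789, 0.0198 and 0.0351, so they were not taken as pairs. Alternatives covered quantile normalization and median centring, other filters, an offset of 32, no intensity trend, array weights, only the arrays compared, all probe sets of a gene, marker and Gapdh covariates, a replicate block and leaving out each array. The fit was tested on simulated data. Gene names came from the platform annotation, and promoters from RefSeq (GRCr8).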

Additional observations from a re-analysis of the deposited data

Results flagged for a closer look

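In 10 of 156 groups of 4 rats looked at, 1 array lay far from the other rats of its group, where chance gives about 1 in 20. The groups looked at included those of the 38 tested members given in full. Array ZD 9 was the high one for *Ndufb5* (13.06, others 12.78 to 12.83), *Ndufa9* (11.96, others 11.72 to 11.76) and *Atp5po* (12.82, others 12.49 to 12.55). Array PF 4 was the low one for *Ndufb2* (12.34, others 12.57 to 12.59) and *Sdhb* (12.13, others 12.28 to 12.30). Array ZR 15 was the low one for *Ndufa9* (11.41, others 11.61 to 11.64) and *Ndufb2* (11.99, others 12.25 to 12.27). The remaining arrays were PF 6, high for *Cox7a1* (8.10, others 8.00 to 8.02), ZRPF 6, low for *Cox5b* (12.87, others 12.97 to 12.98), and ZR 10, high for *Ndufb9* (13.41, others 13.26 to 13.28).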

How the results depend on the processing

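No member was called in ZD against PF, ZR against ZRPF or their difference under any setting or without any array. Of 315 summary values under alternatives, 288 kept their direction and size and 27 did not. The count of members called in ZRPF against PF (9) became 16 with quantile normalization and 20 with median centring, against 15.4% and 20.1% of all probe sets. It became 4 with no filter (of 86 members, with 7.92% of all probe sets) or with no intensity trend (14.7%). Array weights gave 14 (19.6%), marker covariates 2 (8.99%) and the Gapdh covariate 1 (4.97%). The median log2 change of the members in this comparison (-0.064) became -0.15 with median centring, where the median of all probe sets was -0.090. In ZR against ZD (18 called) 9 were called when only its own arrays were fitted (12.5% of all probe sets) and 6 with the Gapdh covariate (5.06%). In ZD against PF (19 members lower) 57 were lower with median centring, where 61.6% of all probe sets lay below 0. With array weights 31 were lower (47.7% of all probe sets). Leaving out 1 array gave 2 to 8 calls in ZRPF against PF, 7 to 29 in ZR against ZD and 12 to 62 members lower in ZD against PF. With the replicate block on shared rat numbers 1 member was called in ZRPF against PF (6.99% of all probe sets). On the same arrays without the block, an alternative chosen after seeing the data, 3 were called (8.41%). *Atp5po* in ZR against ZRPF turned to 0.034 when its probe sets were averaged and *Uqcrc2* in ZD against PF to 0.0036 with marker covariates. Of 807 values of named members, 681 stayed on their side of the threshold in the same direction and 124 called values fell short of it. The cause was not tested in any of these.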
